A study of Mus musculus with 6 samples.

Results

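The MYC family and its MAX partner network was followed through 10 genes in cultured embryonic mouse ureters: *Myc*, *Mycn* and *Mycl*, the common partner *Max*, and the MAX-binding antagonists *Mxd1*, *Mxi1*, *Mxd3*, *Mxd4*, *Mnt* and *Mga*. The genes were taken by symbol as the named members of the network, and all 10 were found among the 56748 gene identifiers of the count table. All 10 passed the filter on low counts that left 18188 genes for testing, with between 226 and 7694 reads per gene and library. Bulk RNA sequencing had been performed on wildtype ureters of the NMRI strain, explanted at E12.5 (embryonic stage) and kept for 18 h on transwell membranes with 15 mM lithium chloride (LiCl, 3 samples) or with water (control, 3 samples). LiCl inhibits the kinase GSK3 and was used to activate canonical WNT signaling in the explants. The sources used here do not say how many ureters went into each sample, nor whether the samples were separate cultures of separate litters, so p-values measure the spread between these samples, which may be technical in part.

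MYC, MYCN and MYCL are basic helix-loop-helix leucine zipper transcription factors that bind DNA only when paired with MAX. The pairs recognise the E-box (CACGTG) and raise transcription of genes for ribosome production, metabolism and cell growth. The MXD proteins (MXD1, MXI1, MXD3 and MXD4), MNT and MGA also pair with MAX at E-boxes. MXD proteins and MNT recruit SIN3 co-repressors, and MGA is part of a variant Polycomb complex called PRC1.6. In many epithelia *Myc* is a direct target of WNT signaling. GSK3 also phosphorylates the MYC protein and thereby marks it for degradation, a step that mRNA levels do not report.

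The E-box itself occurs close to the start of 2 antagonist genes, *Mxd4* and *Mnt*, which are shown here because both changed after LiCl and because the E-box is the site that the network's own proteins bind. The windows are the 250 bases upstream of the RefSeq transcription start in the GRCm38.p6 assembly, and each is written 5′ to 3′ on the strand of its gene with the E-box in capitals. The *Mxd4* window lies at chr5:34187711-34187960 on the minus strand with its E-box 219 to 214 bases upstream of the start, and the *Mnt* window lies at chr11:74830674-74830923 on the plus strand with its E-box 123 to 118 bases upstream.
Mxd4: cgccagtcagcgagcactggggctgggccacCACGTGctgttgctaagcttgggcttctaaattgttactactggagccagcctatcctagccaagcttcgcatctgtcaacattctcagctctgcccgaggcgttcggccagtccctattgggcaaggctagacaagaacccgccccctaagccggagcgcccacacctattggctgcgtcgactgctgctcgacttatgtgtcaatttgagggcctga
Mnt: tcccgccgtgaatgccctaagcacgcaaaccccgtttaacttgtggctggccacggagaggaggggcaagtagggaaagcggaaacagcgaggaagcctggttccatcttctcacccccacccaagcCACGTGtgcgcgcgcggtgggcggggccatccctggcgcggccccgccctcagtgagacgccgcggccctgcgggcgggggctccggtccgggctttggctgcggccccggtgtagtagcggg

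A window was given for 9 of the 10 genes, 11 windows in all because *Mxi1* has 3, and none for *Myc*. The E-box, searched on both strands, was found in 2 of these 11 windows and in 6.02% of the 32851 windows of all genes. Among the 11, the TCF/LEF core CTTTGA, the element bound by the nuclear effectors of WNT signaling, was found in the *Mycn* window alone, against 13.8% of all windows. The same *Mycn* window holds the E2F motif TTTGGCGC at 2 positions, and 0.417% of all windows hold it at least once. It lies at chr12:12941837-12942086 on the minus strand and is shown with both E2F motifs (183 to 176 and 168 to 161 bases upstream) and the TCF/LEF core (13 to 8 bases upstream, read on the other strand as TCAAAG) in capitals.
Mycn: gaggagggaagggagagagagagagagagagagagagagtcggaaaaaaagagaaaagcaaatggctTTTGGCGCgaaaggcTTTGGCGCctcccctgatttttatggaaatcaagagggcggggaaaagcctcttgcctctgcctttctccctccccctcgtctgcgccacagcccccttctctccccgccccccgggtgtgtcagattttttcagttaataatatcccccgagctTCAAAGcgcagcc
The motifs were chosen with the expression values known, and a match describes these letters in these windows only.

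The 6 libraries held between 28473436 and 31266945 counts, and replicates of a group differed from each other by more than sampling noise in every pair. Response genes of WNT signaling were higher after LiCl in 7 of 8 cases by edgeR's quasi-likelihood test, among them the feedback inhibitor *Axin2* (71.8 ± 2.68 CPM, read counts scaled to library size, in controls and 136 ± 2.03 after LiCl, SD, n = 3). Markers of the ureteric epithelium and of the ureteric mesenchyme were detected in all libraries, none of them at 0. After LiCl the summed level of 10 epithelial markers was 905 to 942 CPM against 1250 to 1570 in controls (1 higher and 7 lower), and that of 10 mesenchymal markers was 4470 to 4880 against 6090 to 6920 CPM (0 higher and 7 lower). Smooth muscle markers summed to 93.4 to 116 CPM against 151 to 199 (0 higher and 5 lower of 8), and neural markers to 353 to 420 CPM against 483 to 521 (0 higher and 4 lower of 10). Endothelial markers summed to 497 to 612 CPM against 540 to 683 (0 higher and 1 lower of 8). Macrophage markers summed to 71.9 to 97.1 against 84.6 to 136 (1 higher and 4 lower of 8), and renal markers to 183 to 198 against 204 to 207 (2 higher and 3 lower of 9). Erythroid markers summed to 624 to 956 against 477 to 690 (2 higher and 0 lower of 7 tested). Of all tested genes, 21.1% were higher and 22.4% lower. The epithelial, mesenchymal, smooth muscle, neural and renal sums moved in the same direction as the 5 network genes that fell. Their part in that was not tested. In whole explants, fewer cells of a type and less RNA per cell cannot be told apart. LiCl replicates 1 and 3 held skeletal muscle transcripts (summed marker level 32.1 and 67.0 CPM, against 7.08 to 9.32 in the other 4 libraries; *Myog* and *Myf5* were at 0 in at least 1 library). Long transcripts were also recovered unevenly, and the 1819 longest genes had their lowest median levels in control replicate 2 and LiCl replicate 1 (-0.1 and -0.08 from their mean on the log2 scale), which bears on *Mga* below.

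After LiCl, 5 of the 10 network genes were lower (*Myc*, *Mycl*, *Mxd4*, *Mnt* and *Mxi1*), 1 was higher (*Mxd3*) and 4 did not pass (*Mycn*, *Max*, *Mxd1* and *Mga*), at an adjusted p under 0.05 in edgeR's quasi-likelihood test over all 18188 genes. Of all tested genes, 22.4% were lower and 21.1% were higher at this threshold, 43.5% together, so a call alone is common in this comparison. The median log2 fold change was -0.21 over the 10 genes and -0.01 over all genes. No network gene changed by more than 1 on the log2 scale, the limit that the study set for its own gene lists, which 4.59% of tested genes passed downward and 2.74% upward (7.33% together). The LiCl and control samples did not overlap for 7 network genes, 6 with LiCl lower and 1 with LiCl higher. Over all tested genes, 27.8% had all LiCl samples below all controls and 26.4% had them above, 54.2% together.

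**Figure D1:**
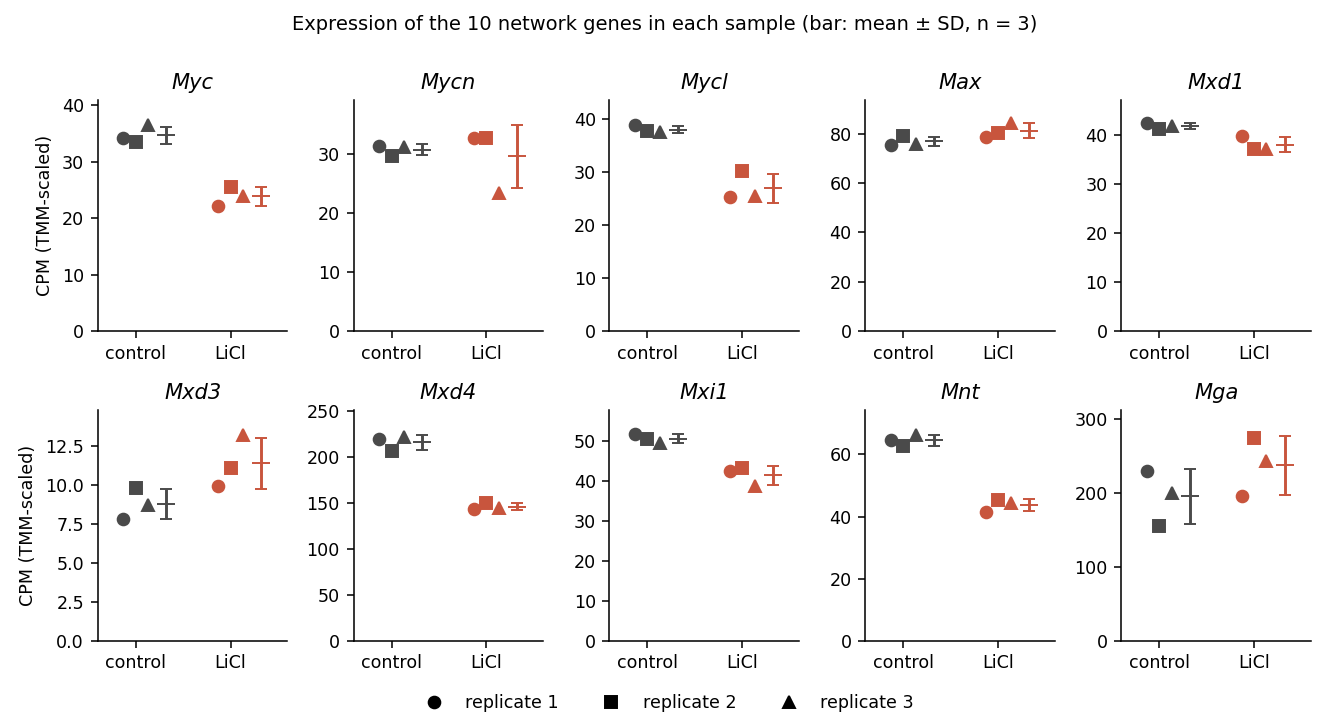
Each panel plots 1 gene, with TMM-scaled CPM from 0 on the vertical axis and the group on the horizontal axis. Points are single samples (circle, square and triangle for replicates 1, 2 and 3) and bars are the mean ± SD of 3 samples. LiCl samples lie below all controls for *Myc*, *Mycl*, *Mxd1*, *Mxd4*, *Mxi1* and *Mnt* and above them for *Mxd3*. For *Mycn*, *Max* and *Mga* they lie neither all below nor all above the controls.

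*Myc* (ENSMUSG00000022346) encodes the founding member of the family. Its reads numbered 982, 1041 and 1115 in the controls and 688, 712 and 675 after LiCl, or 34.2, 33.5 and 36.4 CPM against 22.1, 25.5 and 23.9 CPM. Every LiCl sample was below every control, with 8.04 CPM between the nearest pair. The level fell by 31.3% (log2 fold change -0.54, 95% interval -0.7 to -0.39, adjusted p = 0.00027 in edgeR's quasi-likelihood test). *Myc* was lower in the same libraries in which *Axin2* was higher by 0.92 on the log2 scale.

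*Mycl* (ENSMUSG00000028654), the family member known for its role in dendritic cells and neuroendocrine tumours, was also lower. Controls read 38.8, 37.8 and 37.5 CPM, and LiCl samples 25.2, 30.1 and 25.5 CPM. LiCl replicate 2 was the highest of the treated samples and still below all controls. The level fell by 29.3% (log2 fold change -0.5, interval -0.67 to -0.33, adjusted p = 0.00066 in edgeR's quasi-likelihood test). The log2 ratio of *Myc* to *Mycl* differed by -0.04 between the groups, and the 2 sets of ratios overlapped.

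*Mycn* (ENSMUSG00000037169), which serves proliferating progenitors of many embryonic organs, did not pass. Controls read 31.3, 29.7 and 31.2 CPM, and LiCl samples 32.6, 32.7 and 23.4 CPM. LiCl replicates 1 and 2 were above all controls and LiCl replicate 3 was below all of them, so the treated group spread 5.72 times as widely (SD 5.31 against 0.928 CPM). The log2 fold change was -0.05 (interval -0.31 to 0.2, adjusted p = 0.73 in edgeR's quasi-likelihood test) and became 0.09 without LiCl replicate 3. The interval includes changes of up to 0.31 downward, so a decrease within that range is not excluded by these samples. Relative to *Mycn*, *Myc* was lower after LiCl by 0.47 and *Mycl* by 0.43 (differences of log2 CPM ratios), with no overlap between the groups in either case. Each had p = 0.1 in the two-sided exact permutation test, the smallest that 3 against 3 samples allow (adjusted p = 0.129 over the 9 ratios compared).

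*Max* (ENSMUSG00000059436) encodes the partner that all the other proteins need. It read 75.6, 78.9 and 76.0 CPM in controls and 78.7, 80.3 and 84.5 CPM after LiCl, and the groups overlapped by a single pair of samples. The log2 fold change was 0.08 (interval -0.03 to 0.19, adjusted p = 0.22 in edgeR's quasi-likelihood test). *Myc*, *Mycl*, *Mxd4* and *Mnt* were each lower relative to *Max*, with differences of log2 ratios of -0.62, -0.58, -0.64 and -0.64. None of these 4 ratios overlapped between the groups (p = 0.1 each, two-sided exact permutation test, the smallest possible, adjusted p = 0.129).

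*Mxd4* (ENSMUSG00000037235) is an antagonist linked to cells that leave the cell cycle, and it had the most reads of the MXD genes. Controls read 220, 207 and 222 CPM, and LiCl samples 143, 150 and 145 CPM. The lowest control was 56.7 CPM above the highest LiCl sample. The level fell by 32.4% (log2 fold change -0.56, interval -0.67 to -0.46, adjusted p = 2.4e-05 in edgeR's quasi-likelihood test). An antisense gene model, Gm42846, shares 514 exon bases with *Mxd4* in the GENCODE vM21 annotation, and it was at 0 counts in all 6 libraries.

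*Mnt* (ENSMUSG00000000282), the most broadly expressed antagonist and the one that persists in dividing cells, fell as well. It read 64.6, 62.8 and 66.2 CPM in controls and 41.4, 45.2 and 44.3 CPM after LiCl, again with every LiCl sample below every control. The decrease was 32.3%, with a log2 fold change of -0.56 (interval -0.68 to -0.44, adjusted p = 4.9e-05 in edgeR's quasi-likelihood test). The log2 ratio of *Myc* to *Mnt* was -0.9 in controls and -0.87 after LiCl, a difference of 0.02 with overlapping groups (p = 0.5, two-sided exact permutation test).

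*Mxi1* (ENSMUSG00000025025), also known as MXD2, read 51.7, 50.5 and 49.3 CPM in controls and 42.4, 43.1 and 38.7 CPM after LiCl. All treated samples were below all controls. It fell by 18.0% (log2 fold change -0.29, interval -0.42 to -0.16, adjusted p = 0.0033 in edgeR's quasi-likelihood test). With LiCl replicates 1 and 3, the libraries with muscle transcripts, left out, the change was -0.22 with an adjusted p of 0.099. Then a single LiCl library remained, which was assumed to vary like the controls.

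*Mxd1* (ENSMUSG00000001156), induced in many tissues at terminal differentiation, had the smallest shift among the genes whose groups did not overlap. Controls read 42.5, 41.3 and 41.8 CPM and LiCl samples 39.8, 37.1 and 37.2 CPM. The log2 fold change was -0.14 (interval -0.26 to -0.02, adjusted p = 0.059 in edgeR's quasi-likelihood test), just outside the threshold. Without LiCl replicate 1 it was -0.17 with an adjusted p of 0.045.

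*Mxd3* (ENSMUSG00000021485) differs from its relatives in that it is expressed in proliferating cells, around S phase. It was the only network gene called higher, and also the lowest expressed, with 226 to 372 reads per library. Controls read 7.86, 9.79 and 8.71 CPM and LiCl samples 9.98, 11.1 and 13.2 CPM, so the groups were separated by 0.183 CPM. The level was 29.8% higher (log2 fold change 0.38, interval 0.08 to 0.67, adjusted p = 0.041 in edgeR's quasi-likelihood test). The call was lost without control replicate 1 (0.3, adjusted p = 0.12), control replicate 3 (0.37, 0.1), LiCl replicate 2 (0.4, 0.064) or LiCl replicate 3 (0.27, 0.15). *Mxd3* shares 105 exon bases with *Prelid1* on the opposite strand, whose log2 fold change was 0.13 (adjusted p = 0.058). Whether the counting used strand is not given in the sources used here. The log2 ratio of *Mxd3* to *Mxd4* was 0.94 higher after LiCl and did not overlap between groups (p = 0.1, two-sided exact permutation test, the smallest possible).

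*Mga* (ENSMUSG00000033943) encodes a very large protein that carries a T-box domain besides its helix-loop-helix, and its exons span 15340 bases. Controls read 230, 156 and 200 CPM and LiCl samples 196, 275 and 244 CPM. Control replicate 2 was lowest and LiCl replicate 2 highest, and the groups overlapped through LiCl replicate 1. The log2 fold change was 0.29 (interval -0.05 to 0.62, adjusted p = 0.15 in edgeR's quasi-likelihood test). On the log2 scale *Mga* deviated from its mean over the 6 libraries by 0.11, -0.45 and -0.09 in the controls and by -0.12, 0.37 and 0.19 after LiCl. Other long transcripts were also uneven: *Ep400* deviated by 0.13, -0.37 and 0.01 against -0.21, 0.32 and 0.13, *Trrap* by 0.27, -0.31 and 0.03 against -0.26, 0.24 and 0.03, and *Huwe1* by 0.35, -0.38 and 0.04 against -0.4, 0.32 and 0.07. All 4 were lowest or nearly lowest in control replicate 2 and high in LiCl replicate 2, but control replicate 1 and LiCl replicate 1 departed more in *Trrap* and *Huwe1* than in *Mga*. The median of the 1819 longest genes was highest in control replicate 1 (0.11), not in LiCl replicate 2 (0.05). The part of transcript length in the *Mga* values was not tested beyond the correction that follows. With a gene length correction, added after the data had been seen, *Mga* was 0.34 higher with an adjusted p of 0.0099. Without LiCl replicate 1 it was 0.41 higher (adjusted p = 0.042), and without control replicate 2 it was 0.15 higher (adjusted p = 0.38), so its call depended on which library was left out.

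**Figure D2:**
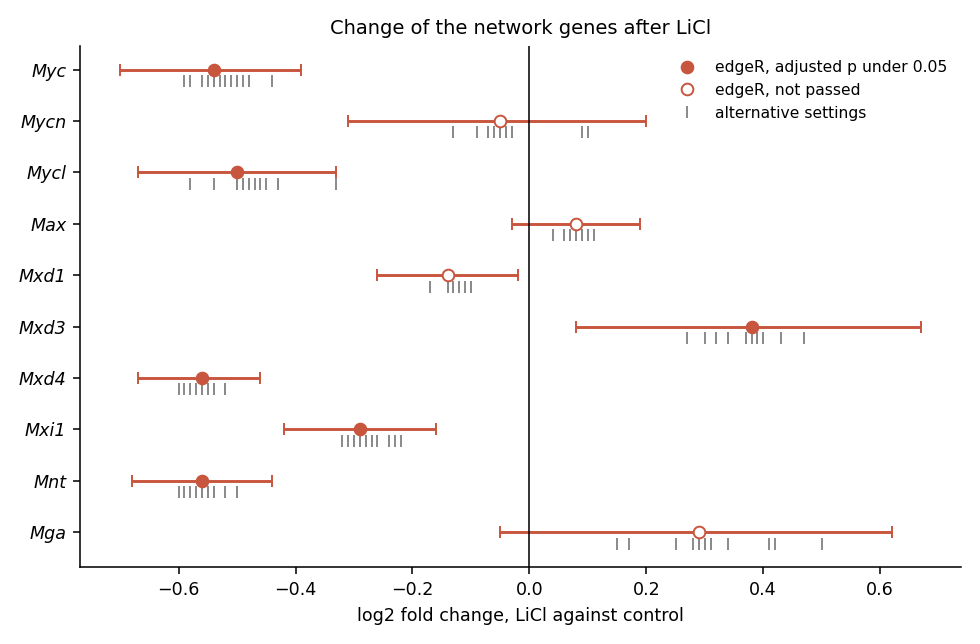
The horizontal axis gives the log2 fold change of LiCl against control and each line 1 network gene. Circles with bars are edgeR estimates with 95% intervals, filled where the adjusted p is under 0.05, and the grey ticks below them are the values under 17 alternative settings. *Myc*, *Mycl*, *Mxd4* and *Mnt* group near -0.5, *Mycn* and *Max* near 0, and the ticks of *Mxd3* and *Mga* spread widest on the positive side.

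To set the levels of different genes side by side, the deposited FPKM values were used, which divide by gene length. In controls *Mxd4* was the most abundant transcript per length (25.2 FPKM, range 24.3 to 25.9), followed by *Max* (21.1), *Mnt* (13.8), *Myc* (12.6), *Mga* (12.6), *Mycl* (9.32), *Mycn* (9.22), *Mxi1* (7.32), *Mxd1* (5.86) and *Mxd3* (3.67). Neighbours in this order had separate ranges except *Myc* with *Mga* and *Mycl* with *Mycn*. After LiCl *Max* was first with 22.6 FPKM and *Mxd4* second with 17.2, a range that overlapped that of *Mga* (15.6). *Mnt* (9.44), *Mycn* (8.98) and *Myc* (8.79) then followed with overlapping ranges, so *Myc* was no longer separated from *Mycn*. *Mycl* (6.67) overlapped *Mxi1* (6.07), and *Mxd1* (5.38) overlapped *Mxd3* (4.83).

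Summed over *Myc*, *Mycn* and *Mycl*, the MYC transcripts came to 31.1, 30.5 and 31.8 FPKM in controls and 24.3, 26.7 and 22.3 FPKM after LiCl. The sum of the MXD genes and *Mnt* was 55.8, 55.1 and 56.7 FPKM in controls and 41.9, 43.7 and 43.3 FPKM after LiCl. Both sums were lower in every LiCl sample. Per unit of *Max*, the MYC sum was 1.51, 1.4 and 1.52 in controls and 1.11, 1.2 and 0.947 after LiCl, without overlap. In contrast, the MYC sum per unit of the MXD and MNT sum was 0.558, 0.555 and 0.562 in controls and 0.579, 0.611 and 0.515 after LiCl, with treated samples on both sides of the controls. With *Mga* added to the antagonists, this ratio was 0.441, 0.468 and 0.457 in controls and 0.444, 0.433 and 0.377 after LiCl. LiCl replicates 2 and 3 were then below all controls and LiCl replicate 1 was among them.

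The make-up of each sum also shifted. *Myc* supplied 39.7%, 40.2% and 41.6% of the MYC sum in controls and 33.6%, 35.1% and 39.6% after LiCl, and *Mycn* supplied 30.0%, 29.3% and 29.4% against 40.8%, 37.1% and 32.0%. LiCl replicate 3, the library low in *Mycn*, was the nearest to the controls in both shares. Among the antagonists, the share of *Mxd4* went from 45.6%, 44.1% and 45.6% to 40.3%, 40.5% and 39.6%. The share of *Mxd3* went from 5.85%, 7.47% and 6.43% in controls to 10.7% and 12.9% in LiCl replicates 2 and 3, and LiCl replicate 1 was also above all controls. FPKM describes transcripts, and protein amounts were not measured.

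**Figure D3:**
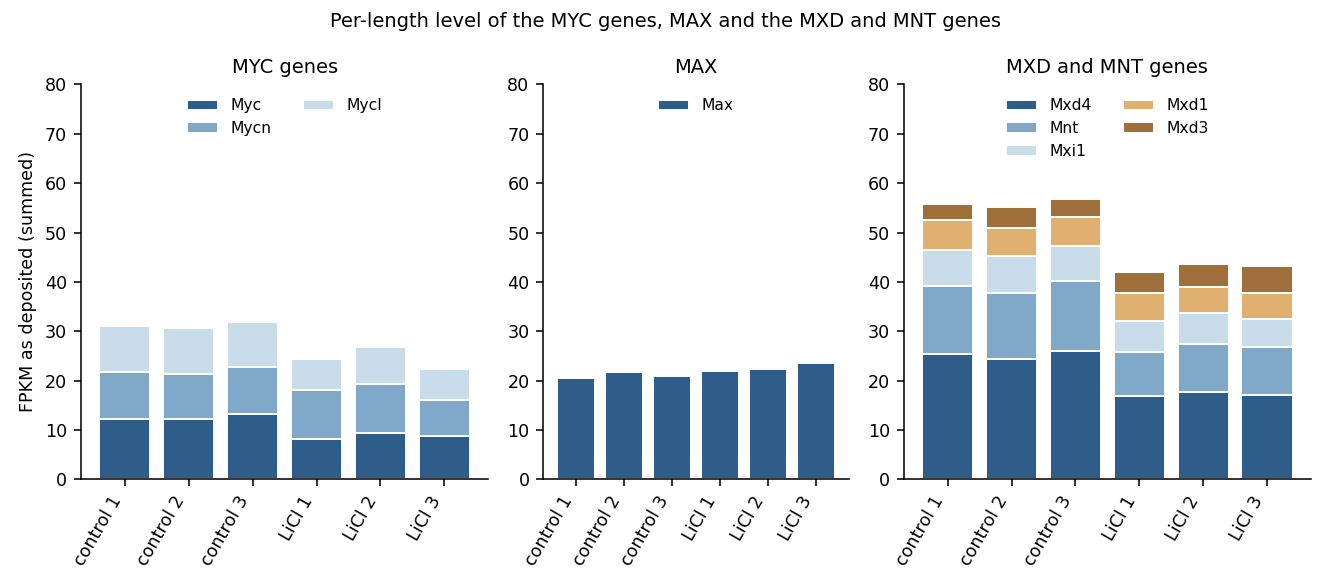
Stacked bars give the deposited FPKM of the MYC genes, of *Max* and of the MXD and MNT genes in each of the 6 samples, all on 1 vertical scale from 0. The MYC sums drop from 30.5 to 31.8 in controls to 22.3 to 26.7 after LiCl and the MXD and MNT sums from 55.1 to 56.7 to 41.9 to 43.7, while *Max* stays between 20.6 and 23.6.

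Genes with a similar course over the 6 samples were looked for among the 15447 tested genes that averaged 1 CPM or more, by the root mean square difference of log2 CPM after centring each gene. The course of *Myc* was nearest to *Rgl1* (0.023), *Pld1* (0.03) and *Mnt* (0.031), so that a member of the network itself was the third nearest. With 369 genes within 0.1 of *Myc*, this closeness is common in a comparison of 2 groups. *Mycl* was nearest to *Cnnm2* (0.026), *Kcnd2* (0.029) and *Cd320* (0.036), with 331 genes within 0.1. For *Mycn*, with its low value in LiCl replicate 3, *Fbxl12os* (0.049), *Ggn* (0.051) and *Ccl25* (0.059) were nearest, and 34 genes lay within 0.1.

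Genes that MYC is known to activate were mostly higher after LiCl, in the same libraries in which *Myc* and *Mycl* were lower. Of 38 such genes, 28 were higher (73.7%, against 21.1% of all tested genes), 1 was lower and 9 did not pass in edgeR's quasi-likelihood test, with a median log2 fold change of 0.26. With LiCl replicate 1, 2 or 3 left out, 29, 29 or 26 of them were higher and 1 was lower each time. Among all genes, 3415, 3549 or 3147 were higher in these fits. Leaving out both LiCl replicates 1 and 3 keeps a single LiCl library, so no count is given for that fit. Among the 18 ribosome biogenesis genes, 13 were higher and 0 lower (median 0.36). The ribosome assembly factor *Ppan* went from 39.6 ± 3.98 to 63.6 ± 5.05 CPM (log2 fold change 0.68), the nucleolar GTPase *Gnl3* from 60.1 ± 1.36 to 90.5 ± 9.82 CPM (0.59) and the nucleolar phosphoprotein *Nolc1* from 86.4 ± 0.528 to 122 ± 6.76 CPM (0.5). Of the 20 metabolism and growth genes, 15 were higher and 1 lower (median 0.25). The largest increases were in one-carbon metabolism, with *Shmt1* at 22.3 ± 0.755 and 46.0 ± 1.91 CPM (1.04), *Shmt2* at 110 ± 3.48 and 185 ± 13.3 CPM (0.75) and *Mthfd2* at 59.4 ± 1.43 and 89.1 ± 6.84 CPM (0.58). The hexokinase gene *Hk2* was the 1 that fell, by 0.23 on the log2 scale (adjusted p = 0.0093 in edgeR's quasi-likelihood test). *Odc1*, the polyamine enzyme gene often used as a MYC readout and named here after its value had been seen, had a log2 fold change of 0.04 (adjusted p = 0.51). Many of these genes also follow proliferation, and all 10 mitotic genes examined were higher (median 1.29). What part proliferation had in the activated genes was not tested. Of 10 S phase genes, 6 were higher and 2 lower, beside 21.1% and 22.4% of all tested genes. *Mcm5* was at 0.86, *Mcm3* at 0.76 and *Rrm2* at 0.54 on the log2 scale, and the cyclin E genes *Ccne1* and *Ccne2* at -0.43 and -0.45.

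The E-box was found in 7 of 22 upstream windows of the metabolism and growth genes (31.8%) and in 0 of 20 windows of the ribosome biogenesis genes, beside 6.02% of all windows. Of 12 genes known to be repressed by MYC, 3 were higher (25.0%) and 5 lower (41.7%), with a median of -0.12. Of all tested genes, 21.1% were higher and 22.4% lower. The cell cycle inhibitor genes *Cdkn1a* (23.6 ± 4.65 to 58.6 ± 2.93 CPM, log2 fold change 1.31) and *Cdkn1b* (73.4 ± 4.28 to 110 ± 0.821 CPM, 0.59) were higher. Their relative *Cdkn1c*, with more reads than either, was lower (402 ± 13.2 to 336 ± 15.1 CPM, -0.26), and *Cdkn2b* did not pass (0.09). The differentiation-linked *Ndrg2* and *Ndrg1* and the stress gene *Gadd45b* were lower, with log2 fold changes of -0.91, -0.75 and -0.56.

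**Figure D4:**
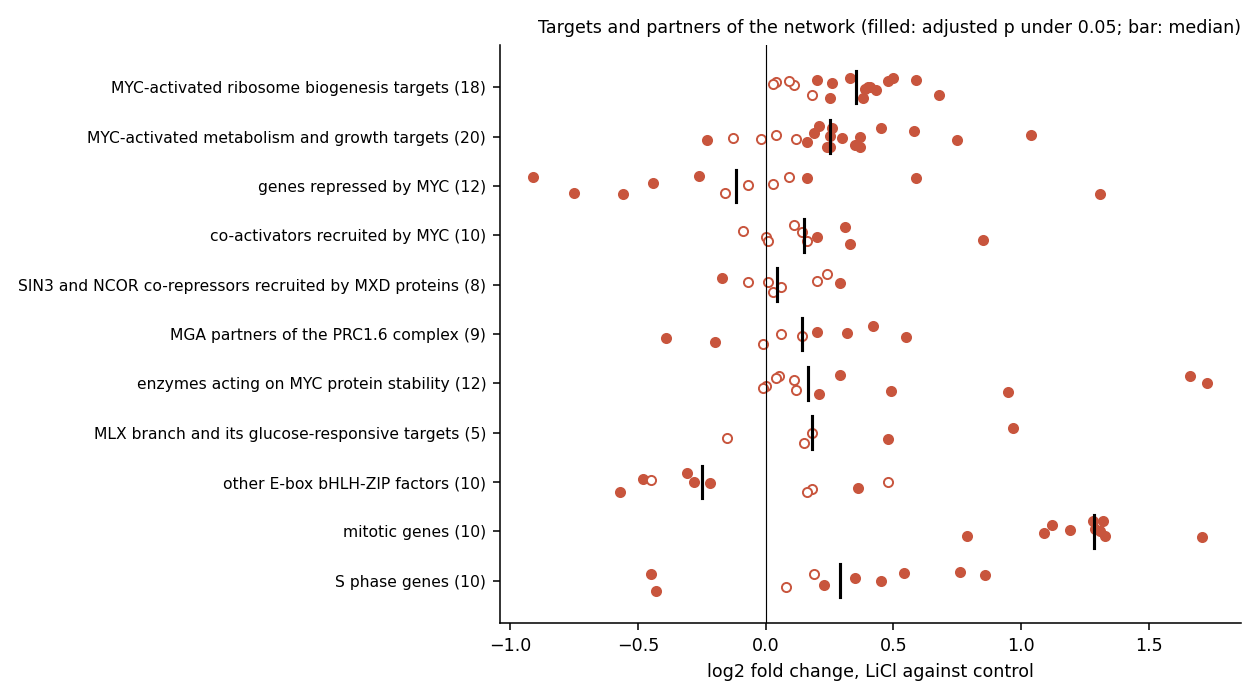
Each point is 1 gene, placed by its log2 fold change of LiCl against control on the horizontal axis and by its list on the vertical axis, with the number of genes per list in brackets. Filled points had an adjusted p under 0.05 in edgeR, and black bars are medians. Both lists of MYC-activated genes lie mainly right of 0 (medians 0.36 and 0.25), and mitotic genes lie farthest right (median 1.29).

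The cofactors through which the network acts were read out of the same test, in which 21.1% of all tested genes were higher and 22.4% lower. Of 10 co-activator genes, 4 were higher and 0 lower (median 0.15). *Brd8*, a subunit of the NuA4/TIP60 acetyltransferase complex, went from 174 ± 4.36 to 313 ± 23.8 CPM (log2 fold change 0.85), the helicase gene *Ruvbl2* had a log2 fold change of 0.33, and *Wdr5*, a chromatin docking partner of MYC, of 0.31. Among 8 genes of the SIN3 and NCOR co-repressors that MXD proteins and MNT use, *Sap18* was higher (0.29), the scaffold gene *Sin3a* was lower (fell by 0.17, adjusted p = 0.02 in edgeR's quasi-likelihood test) and 6 did not pass. Of 9 partners of MGA in the PRC1.6 complex, 4 were higher and 2 lower. *L3mbtl2* (0.55), *Tfdp1* (0.42) and *Pcgf6* (0.32) had the highest log2 fold changes, and the ubiquitin ligase genes *Ring1* (-0.39) and *Rnf2* (-0.2) were the lower pair.

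Genes acting on the stability of the MYC protein were higher in 6 of 12 cases and lower in 0, beside 21.1% and 22.4% of all tested genes. The mitotic kinase gene *Aurka*, whose product shields MYCN from degradation, went from 24.1 ± 2.38 to 80.1 ± 3.52 CPM (log2 fold change 1.73, adjusted p = 5.5e-07 in edgeR's quasi-likelihood test). *Cip2a*, which encodes an inhibitor of the phosphatase that destabilises MYC, went from 33.1 ± 1.39 to 105 ± 7.0 CPM (1.66), and the deubiquitinase gene *Usp36* from 61.9 ± 1.42 to 119 ± 4.88 CPM (0.95). *Gsk3b*, the gene for a target of LiCl and named here after its value had been seen, read 219 ± 13.4 and 220 ± 13.9 CPM (0, adjusted p = 0.99).

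The parallel MLX branch, in which MLX pairs with the glucose sensors MLXIP and MLXIPL, gave a split picture. *Mlx*, *Mlxip* and *Mlxipl* had log2 fold changes of 0.18, -0.15 and 0.15 and did not pass (adjusted p = 0.15, 0.083 and 0.55 in edgeR's quasi-likelihood test). Their targets *Txnip*, an inhibitor of glucose uptake, and *Arrdc4*, a related arrestin, were both higher, from 173 ± 1.57 to 242 ± 6.49 CPM (0.48, adjusted p = 3.3e-05) and from 50.7 ± 2.47 to 99.6 ± 4.57 CPM (0.97, adjusted p = 2.7e-06). Of 10 other E-box factors with a basic helix-loop-helix domain, 5 were lower and 1 was higher (median -0.25), beside 22.4% and 21.1% of all tested genes. Among those that passed, the lysosomal regulator gene *Tfeb* (-0.57), the clock-linked *Bhlhe40* (-0.48) and the sterol regulator gene *Srebf2* (-0.31) had the lowest log2 fold changes, and *Usf1* (0.36) was higher.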

How the data were processed

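Read counts per gene and FPKM values were taken as deposited. Per the labels, libraries were made with a stranded poly-A kit and processed against GRCm39, and the submitters' processing notes list fastp 0.23, STAR 2.7, featureCounts 2.0 and DESeq2 1.40, whereas the study's methods name HISAT2 as the aligner. The annotation release and the strand setting of the counting are not given in the sources used here. The FPKM values that the authors deposited equal the deposited counts divided by a size factor and by a whole-number gene length (within 0.02 bases, for 100% of the 13480 genes over 50 counts). Symbols came from GENCODE vM21 names for 52073 of 56748 identifiers. Members and gene lists were chosen with earlier results of these data known.

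Counts were filtered with filterByExpr, scaled by TMM and compared with the quasi-likelihood test of edgeR 4.0.16 (R 4.3.3), LiCl against control, without covariates, with Benjamini-Hochberg adjustment over 18188 genes. CPM values are TMM-scaled. DESeq2 1.42.0, limma 3.58.1 on log2(FPKM + 1) or log2(FPKM + 0.1), other scalings and filters, a replicate block, a gene length offset and left-out libraries were alternatives. Ratios between members were compared by exact permutation of the samples. Fits were tested on simulated data. Besides the 10 members, the text names up to 3 genes per direction and list, by fold change, among those passing the test with separate groups, all genes of lists of 5 or fewer, *Axin2*, and the 3 nearest courses per MYC gene. *Odc1*, *Gsk3b*, *Ep400*, *Trrap*, *Huwe1*, *Prelid1*, Gm42846 and muscle markers are named outside this rule. Precision rests on 3 samples per group. Counting error, relatively largest among the members for *Mxd3* with 226 to 372 reads per library, is contained in the SDs given. The edgeR test takes it into account through its count model.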

Additional observations from a re-analysis of the deposited data

How the results depend on the processing

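Across 17 alternatives, *Myc* (-0.59 to -0.44), *Mycl* (-0.58 to -0.33), *Mxd4* (-0.6 to -0.52) and *Mnt* (-0.6 to -0.5) passed in all 17 and *Mxi1* in 16, failing without LiCl replicates 1 and 3 (-0.22). *Mxd3* passed in 10 and failed with library sizes only (0.34), in the unfiltered limma fit of log2(FPKM + 1) (0.32), without LiCl replicates 1 and 3 (0.34) and in 4 of the 6 leave-one-out fits (0.27 to 0.4, against 0.47 in both fits that passed, a range of 0.27 to 0.47). *Mga* passed in 3: with the gene length offset (0.34), without a count filter (0.31) and without LiCl replicate 1 (leave-one-out range 0.15 to 0.42). *Mxd1* passed with library sizes only (-0.17) and without LiCl replicate 1 (range -0.17 to -0.12). *Mycn* changed sign without LiCl replicate 3 (range -0.13 to 0.09) and without LiCl replicates 1 and 3 (0.1), as did *Mlx* (-0.03 without LiCl replicates 1 and 3). The count of higher members was 0 with library sizes only, in the unfiltered limma fit and without LiCl replicates 1 and 3, 2 with the length offset or without a filter, and 0 to 2 in leave-one-out fits. At a log2 change past 1, 0 members were higher and 0 lower, against 498 and 835 of all genes. Without LiCl replicates 1 and 3, 2014 genes were higher and 2117 lower, where a single LiCl library leaves fewer samples. The 70 other genes named by rule gave 1186 values under these settings, of which 42 lost the call, 5 gained it and 1 changed sign. The length offset and the fits without LiCl replicates 1 and 3 were chosen after seeing the data.

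Same-numbered samples did not deviate together (r = 0.0313, -0.0899 and 0.1 for replicates 1, 2 and 3), so the numbers were not taken to pair them. With a replicate block, 3379 genes were higher and 3602 lower, 1 member was higher and 5 lower, and no member's call changed.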

Other observations

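*Myc* (-0.54), *Mycl* (-0.5), *Mxd4* (-0.56) and *Mnt* (-0.56), that is 2 MYC genes and 2 antagonist genes, had log2 fold changes whose 95% intervals overlapped one another. The interval of the third MYC gene, *Mycn* (-0.31 to 0.2), lay above the estimates of all 4. The *Myc* retrogene *Mycs* held 0 or 1 counts per library and was not tested.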
